A study of Homo sapiens with 6 samples.

Results

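The zinc finger genes of chromosome 19 were taken as every protein-coding gene on that chromosome in the RefSeq annotation of GRCh38.p14 whose symbol begins with ZNF and a number. There were 250 such genes among 19821 protein-coding genes. Gaps of over 500 kb split them into 20 runs, and 10 runs of 5 or more genes held 236 of the 250. R-loops, in which an RNA strand pairs with DNA and displaces the other DNA strand, had been mapped with MapR. In this assay micrococcal nuclease fused to a catalytically deficient RNase H (labelled RH) releases chromatin next to RNA-DNA hybrids, and GST fused to the nuclease gives the background. All samples were IMR90, a line of human embryonic lung fibroblasts of wild-type genotype, cultured in 2% oxygen, and peak lists give no expression by which that label could be checked. Proliferating cells carried a control vector, senescent cells expressed ectopic Ras, and quiescent cells had been starved. Of 6 samples, the 3 RH peak lists were used, 1 per state, and the GST samples were not analysed here. With 1 library per state there were no replicates and no test between states was possible.

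Most of these genes encode KRAB zinc finger proteins, in which a row of C2H2 zinc fingers reads a DNA sequence and a KRAB domain recruits TRIM28 (KAP1). TRIM28 brings SETDB1, which methylates lysine 9 of histone H3, and HP1 proteins, and the complex silences transposable elements in many cell types. The genes arose by repeated tandem duplication, lie in clusters along both arms of the chromosome, and are known for H3K9 trimethylation over their zinc finger exons, to which ZNF274 recruits SETDB1. The lists were used to ask where along these genes, and in which clusters and states, R-loop peaks lay.

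By gene midpoint, 52 genes lay in 19p13 (up to 20 Mb), 32 in 19p12 (20 to 26 Mb), 65 in centromeric 19q13 (26 to 51 Mb) and 101 in 19q13.4 (beyond 51 Mb). The limits in Mb were set here and not taken from a cytoband map. The cluster names are therefore approximate, and a gene can lie in another band than its cluster name says. Gene length ran from 2469 bp for ZNF580 to 487995 bp for ZNF536, with a median of 23254 bp. The set was compared with 1160 other protein-coding genes of chromosome 19, with 267 ZNF genes on other chromosomes, and with all protein-coding genes. Peaks numbered 101802 in the proliferating list (median width 550 bp), 85564 in the senescent (468 bp) and 9736 in the quiescent list (352 bp). On chromosome 19 these came to 4667, 3789 and 681 peaks. Read depth is unknown, so a lower count in a list cannot be told apart from a shallower library. Each peak carries the authors' score, which is never under 10 and has no stated scale, and it was used only to rank peaks within a list. The sources used here do not say how reads matching more than one of these duplicated genes were treated.

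The starts of 5 of these genes carry the patterns described below, and their promoters are shown from 250 bases before to 50 bases after the start, 5′ to 3′ along the gene. They come from RefSeq (GRCh38.p14), and capitals mark each CG dinucleotide, which reads the same on both strands. ZNF724 (minus strand, chr19:23250345-23250644) held the highest senescent score, ZNF257 (plus, chr19:22052234-22052533) had no peak in any list, ZNF628 (plus, chr19:55476367-55476666) the highest quiescent score, ZNF57 (plus, chr19:2900678-2900977) a proliferating peak only, and ZNF404 (minus, chr19:43883915-43884214) the fewest CG dinucleotides.
ZNF724: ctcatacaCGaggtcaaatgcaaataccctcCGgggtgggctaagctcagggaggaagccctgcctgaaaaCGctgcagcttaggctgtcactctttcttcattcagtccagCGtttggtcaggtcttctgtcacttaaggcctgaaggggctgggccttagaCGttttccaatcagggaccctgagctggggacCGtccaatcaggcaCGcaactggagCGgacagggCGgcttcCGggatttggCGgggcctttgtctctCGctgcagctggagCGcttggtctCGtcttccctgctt
ZNF257: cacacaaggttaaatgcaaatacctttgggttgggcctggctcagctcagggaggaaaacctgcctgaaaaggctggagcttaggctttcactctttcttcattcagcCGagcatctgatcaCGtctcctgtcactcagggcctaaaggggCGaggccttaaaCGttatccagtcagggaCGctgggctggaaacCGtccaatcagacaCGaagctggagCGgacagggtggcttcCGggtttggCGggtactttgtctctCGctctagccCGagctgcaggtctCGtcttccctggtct
ZNF628: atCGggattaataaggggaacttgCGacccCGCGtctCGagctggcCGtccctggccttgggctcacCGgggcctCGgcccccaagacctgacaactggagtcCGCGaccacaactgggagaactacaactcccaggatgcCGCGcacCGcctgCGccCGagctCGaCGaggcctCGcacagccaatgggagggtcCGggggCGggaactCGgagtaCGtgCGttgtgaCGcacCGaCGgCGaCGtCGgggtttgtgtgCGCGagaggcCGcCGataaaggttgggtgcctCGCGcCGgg
ZNF57: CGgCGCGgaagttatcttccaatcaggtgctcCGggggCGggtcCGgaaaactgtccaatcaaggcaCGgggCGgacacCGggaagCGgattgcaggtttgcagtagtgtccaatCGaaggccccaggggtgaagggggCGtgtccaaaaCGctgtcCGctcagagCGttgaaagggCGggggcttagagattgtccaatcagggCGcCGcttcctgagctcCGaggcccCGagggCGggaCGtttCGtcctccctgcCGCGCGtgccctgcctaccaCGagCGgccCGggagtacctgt
ZNF404: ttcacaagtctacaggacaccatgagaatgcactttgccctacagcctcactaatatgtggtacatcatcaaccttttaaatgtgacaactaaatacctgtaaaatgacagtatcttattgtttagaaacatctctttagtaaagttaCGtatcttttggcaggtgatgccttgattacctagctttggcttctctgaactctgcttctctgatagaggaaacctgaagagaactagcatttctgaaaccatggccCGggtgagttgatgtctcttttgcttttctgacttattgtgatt
The proliferating peaks covered 100% of the windows of ZNF724, ZNF628 and ZNF57, and 0% of those of ZNF257 and ZNF404. The senescent peaks covered 86.7% of the ZNF724 window, 36.7% of that of ZNF628 and 0% of the other windows, and no quiescent peak reached into any of these windows. The quiescent peaks of ZNF724 (23250153 to 23250309) and ZNF628 lay inside the gene. ZNF724 and ZNF257, both in 19p12, were identical at 251 of 293 aligned bases (85.7%), and the other 9 pairs ranged from 55.1% to 69.3%. The most alike pair of the 5 thus held 1 promoter that lay wholly under a proliferating peak and 1 with no peak, with 14 and 13 CG dinucleotides.

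Peaks at these genes sat at the gene ends. A gene-end peak overlapped the 1000 bp on each side of either end of the gene by at least 1 bp. In the proliferating list 219 of the 250 genes had one (87.6%, 95% Wilson interval 82.9 to 91.1), beside 75.9% of all protein-coding genes. The senescent list gave 194 genes (77.6%, 72 to 82.3), beside 70.3% of all, and the quiescent list 79 (31.6%, 26.2 to 37.6), beside 27.7%. With the 9736 highest peaks of every list, the gene-end shares were 29.6% in the proliferating, 20% in the senescent and 31.6% in the quiescent list, and the shares of all coding genes in the first 2 lists were 30.4% and 19.8%. Among these highest-scoring peaks the set thus lay within 1 percentage point of all coding genes in both lists. The intervals given cover counting error only and treat the genes as independent, although neighbours share peaks. The 219 proliferating genes used 207 different peaks as their highest, and 12 of these peaks were the highest for more than one gene, such as the peak at 12610433 to 12611737 between ZNF490 and ZNF791. Of the 219 genes, 53 (24.2%) had a highest peak within 1000 bp of the end of a gene outside the set, either protein-coding or long non-coding RNA. The same share was not computed for other genes, so this one cannot be called high or low.

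Against the other genes of chromosome 19, the share with a gene-end peak was higher by 9.15 percentage points in the proliferating list (lower 95% Newcombe bound 3.97). The senescent difference was 4.24 points (Newcombe interval -1.85 to 9.64) and the quiescent one 3.41 points (-2.65 to 9.92), both within counting error. Zinc finger genes on other chromosomes had gene-end peaks in 89.9%, 82.4% and 34.8% of cases. They differed from those of chromosome 19 by less than counting error in every list, with a proliferating difference of -2.29 points (-7.87 to 3.2).

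**Figure D1:**
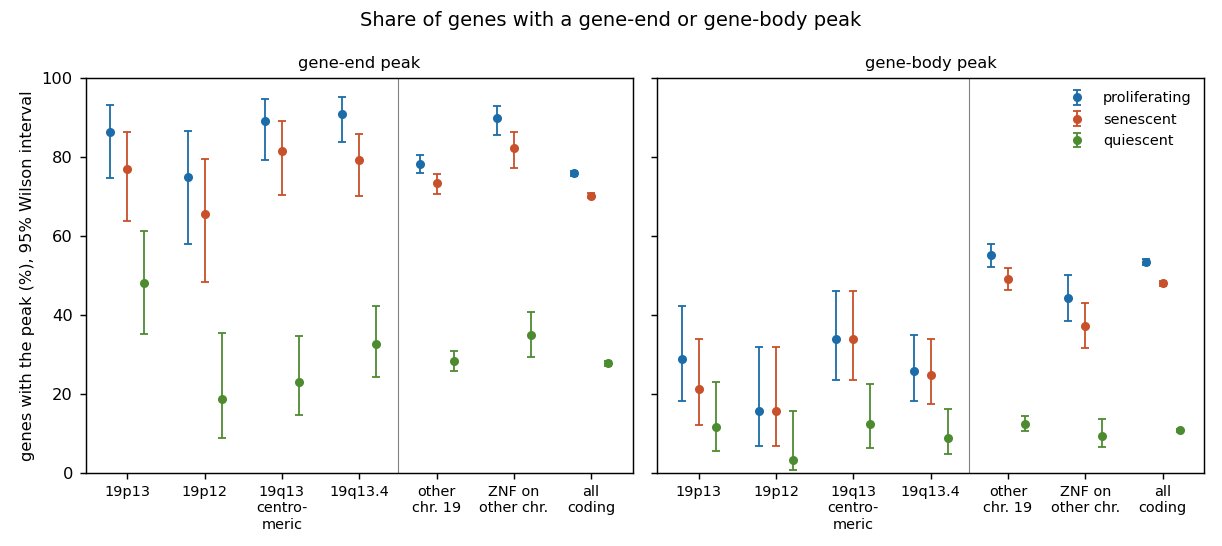
Share of genes with a gene-end peak (left) or a gene-body peak (right), in percent, for the 4 clusters and 3 comparison sets, with 95% Wilson intervals for counting error as bars and 1 colour per list. Gene-end shares of the clusters run from 75% to 91.1% in the proliferating list and from 18.8% to 48.1% in the quiescent list, and their gene-body shares of 15.6% to 33.8% in the proliferating list lie below the 55.1% of the other chromosome 19 genes.

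The peaks lay at the start of the gene and not at its 3′ end. Strand was known for 219 of the 250 genes. Of these, 194 (88.6%) had a proliferating peak within 1000 bp of the start, beside 73.8% of all genes with a known strand, and only 15 (6.85%, 4.19 to 11) had one at the 3′ end, beside 25.1%. In the senescent list 173 genes (79%) had a start peak, beside 67.1%, and 15 (6.85%) a 3′ end peak, beside 21%. The quiescent list gave 72 start peaks (32.9%, beside 27.1%) and 4 at the 3′ end (1.83%, beside 2.97%). Among the other genes of chromosome 19, 47.8% had a proliferating and 38% a senescent peak at the 3′ end. The difference from the zinc finger genes was -41 points (-45.1 to -35.8) in the proliferating and -31.1 points (-35.2 to -26) in the senescent list. Zinc finger genes elsewhere were nearer, with 13.8% in the proliferating list, a difference of -6.91 points (-12.8 to -1.19). Their start peaks were as frequent as those of the set within counting error, at 91.3%, 82.6% and 33.9% in the proliferating, senescent and quiescent lists.

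Sampled every 100 bp, the share of zinc finger genes under a proliferating peak rose to 84% at 100 bp downstream of the start and was 0.913% at 2000 bp upstream and 5.48% at 2000 bp downstream. The other genes of chromosome 19 had a lower and wider profile, with 59.5% at 100 bp downstream, 15% at 2000 bp upstream and 21.4% at 2000 bp downstream. ZNF genes on other chromosomes had a profile close to that of the set, with 84.9%, 4.59% and 9.17% at these distances. The senescent profile of the zinc finger genes of chromosome 19 peaked at the same distance at 61.6% and the quiescent one at 20.1%, beside 64.2% and 18.8% for ZNF genes on other chromosomes. At the 3′ end itself the share was 2.74% in the proliferating list, 1.83% in the senescent and 0.457% in the quiescent, against 21.5%, 12.7% and 1.76% for the other genes of the chromosome.

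**Figure D2:**
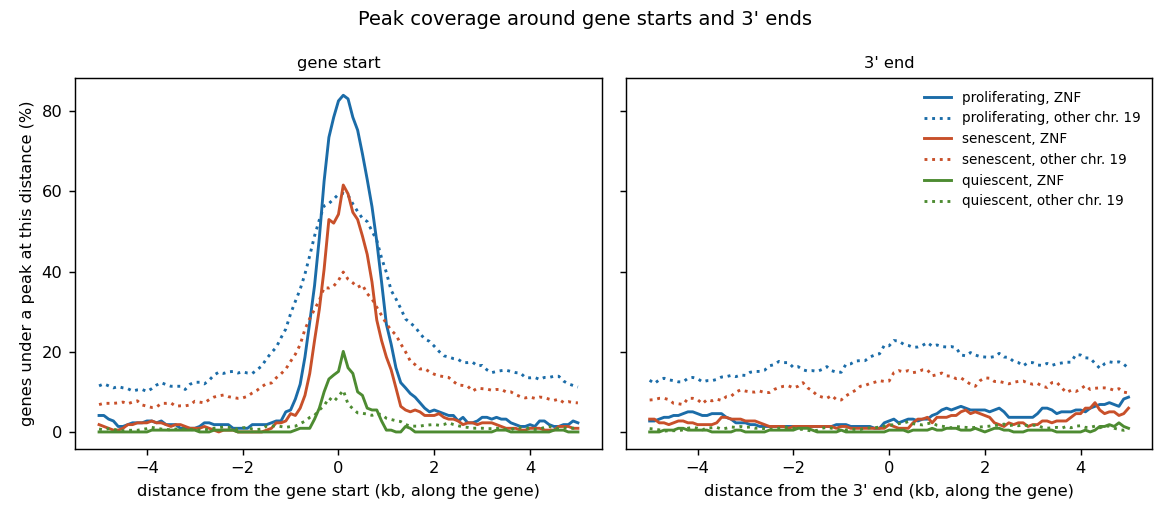
Percent of genes under a peak at each distance in kb from the gene start (left) and from the 3′ end (right), for the 219 zinc finger genes with known strand (solid) and 966 other genes of chromosome 19 (dotted), 1 colour per list. The zinc finger lines rise to 84%, 61.6% and 20.1% just after the start and stay under 10% around the 3′ end, where the dotted proliferating line is near 21.5%.

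The few genes with a peak at the 3′ end were 17 over the proliferating and senescent lists, and several of them were short. ZNF580, of 2469 bp, lay under a single proliferating peak of 4538 bp that reached both of its ends. ZNF653, a repressor of nuclear receptor activity, had 3′ end scores of 27, 42 and 16 in the proliferating, senescent and quiescent lists, and was thus marked at this end in all of them. ZNF880, ZNF580 and ZNF324 were the others with a quiescent peak there. Some of these peaks were not particular to the 3′ end of the gene. The peak of ZNF880 was in every list also the start peak of its neighbour ZNF528. The proliferating 3′ end peaks of ZNF766 and ZNF808 were likewise gene-end peaks of the neighbours ZNF480 and ZNF701. How many of the other 3′ end peaks belong to a neighbour was not counted. In 19p12 0 of 26 genes had a 3′ end peak in any list, which allows a share of up to 12.9% by the Wilson interval, against 5 of 57 in centromeric 19q13 and 8 of 89 in 19q13.4 in the proliferating list. The difference from 19q13.4 was -8.99 points (-16.7 to 4.6), within counting error.

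Gene bodies held few peaks. A gene-body peak overlapped the gene without touching the window at either end. It was found in 68 of 250 genes in the proliferating list (27.2%, 22.1 to 33), beside 53.4% of all protein-coding genes, in 63 in the senescent list (25.2%, 20.2 to 30.9), beside 48%, and in 24 in the quiescent list (9.6%), beside 10.7%. Compared with other chromosome 19 genes the proliferating difference was -27.9 points (-33.8 to -21.4) and the senescent one -23.9 points (-29.7 to -17.5). Compared with zinc finger genes on other chromosomes it was -17 points (-24.9 to -8.75) and -11.9 points (-19.6 to -3.89). The gap to the rest of the chromosome was also present at matched length. Among genes of 10 to 50 kb, 22.4% of 196 zinc finger genes and 71.1% of 606 others had a proliferating body peak, a difference of -48.7 points (-55 to -41.3). The most body peaks in the proliferating list were found in ZNF787, with 6 there, 4 in the senescent and 1 in the quiescent list, and in ZNF536, a repressor of neuronal differentiation and the longest gene of the set, with 5, 1 and 0. These genes were named after their values were seen.

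The 4 clusters had similar shares of gene-end peaks in the proliferating and senescent lists, and 19p12 was the lowest in both. In the proliferating list 45 of 52 genes of 19p13 (86.5%), 24 of 32 of 19p12 (75%), 58 of 65 of centromeric 19q13 (89.2%) and 92 of 101 of 19q13.4 (91.1%) had one. In the senescent list the shares were 76.9%, 65.6%, 81.5% and 79.2%. Of the 6 pairs of clusters, the 1 whose interval left out 0 in either list was 19p12 against 19q13.4 in the proliferating list, at -16.1 points (-33.7 to -2.33). The median end score of the genes with a peak, where the end score is the highest score of a peak at either end, was 49, 44.5, 43 and 42 in the proliferating list and 25, 25, 24 and 24 in the senescent list, in the same order of clusters. Over all protein-coding genes these medians were 46 and 25.

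In the quiescent list the clusters differed more. Quiescent gene-end peaks were found in 25 of 52 genes of 19p13 (48.1%), in 6 of 32 of 19p12 (18.8%), in 15 of 65 of centromeric 19q13 (23.1%) and in 33 of 101 of 19q13.4 (32.7%). The share in 19p13 was higher than in centromeric 19q13 by 25 points (7.62 to 40.8) and than in 19p12 by 29.3 points (8.29 to 45.8), and the difference from 19q13.4 was 15.4 points (-0.756 to 31.1). One run of 25 neighbouring genes in 19p13, from ZNF653 to ZNF791 (11483429 to 12633834), held 16 of the 25 quiescent genes. There 22 genes had a proliferating and 22 a senescent gene-end peak, with median scores of 55 and 28, the highest proliferating median of any run of 14 or more genes. Without that run, which was singled out after its values were seen, 9 of the other 27 genes of 19p13 (33.3%) had a quiescent gene-end peak.

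**Figure D3:**
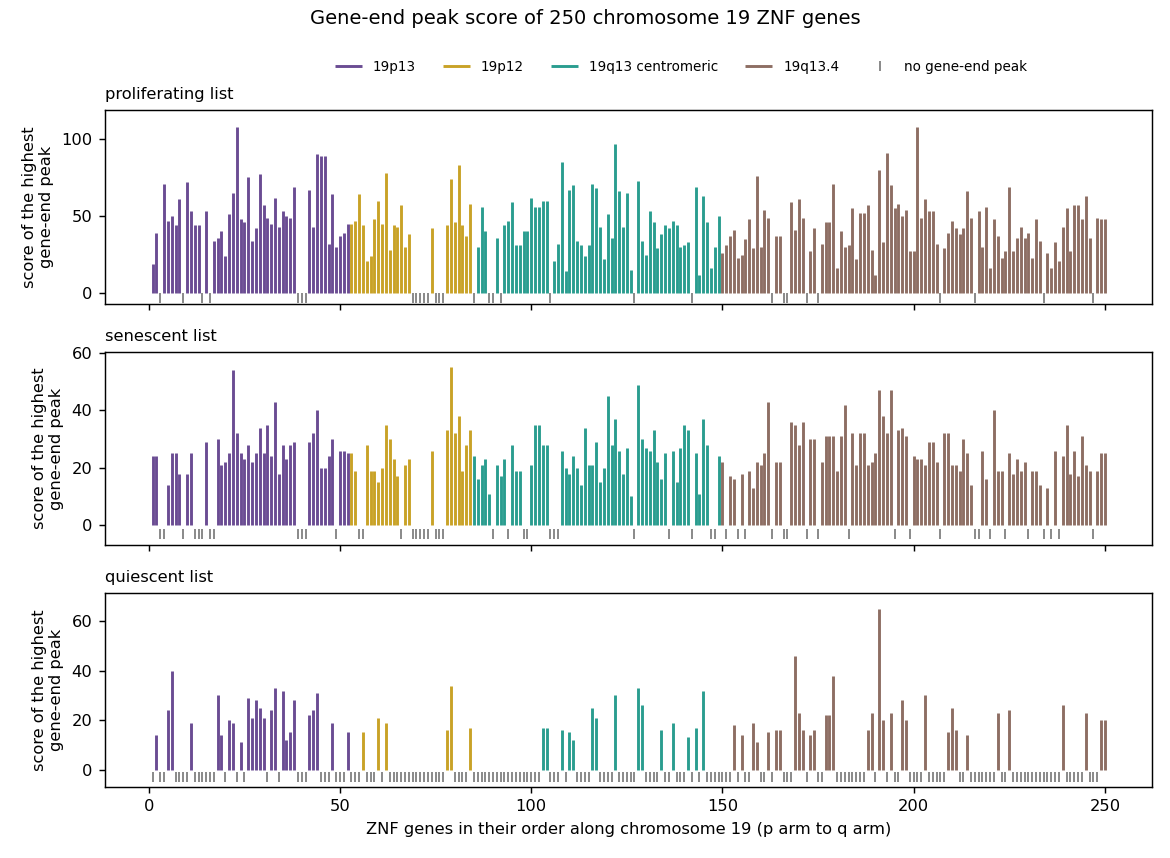
Score of the highest gene-end peak (the authors' score, no unit) for each of the 250 genes in their order along chromosome 19, 1 panel per list, coloured by cluster, with grey ticks for genes without such a peak. Grey ticks gather in the 19p12 stretch from ZNF208 to ZNF728, and the quiescent panel is densest in 19p13.

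The genes with a quiescent gene-end peak were as follows. In 19p13 they were ZNF555, ZNF77, ZNF557, ZNF699, ZNF121, ZNF561, ZNF846, ZNF653, ZNF823, ZNF491, ZNF440, ZNF439, ZNF69, ZNF700, ZNF433, ZNF878, ZNF20, ZNF625, ZNF136, ZNF44, ZNF443, ZNF709, ZNF564, ZNF101 and ZNF93, the last a repressor of LINE-1 elements. In 19p12 they were ZNF737, ZNF430, ZNF431, ZNF730, ZNF724 and ZNF254. In centromeric 19q13 they were ZNF829, ZNF568, ZNF383, ZNF527, ZNF569, ZNF607, ZNF573, ZNF526, ZNF45, ZNF221, ZNF284, ZNF234, ZNF235, ZNF285 and ZNF180. In 19q13.4 they were ZNF613, ZNF615, ZNF841, ZNF616, ZNF480, ZNF880, ZNF528, ZNF701, ZNF83, ZNF611, ZNF28, ZNF468, ZNF816-ZNF321P, ZNF816, ZNF160, ZNF761, ZNF813, ZNF628, ZNF579, ZNF865, ZNF580, ZNF787, ZNF471, ZNF805, ZNF460, ZNF543, ZNF548, ZNF416, ZNF211, ZNF135, ZNF837, ZNF324 and ZNF446. Their quiescent scores ran from 11 to 65 with a median of 20, the same median as over all protein-coding genes. The highest were 65 for ZNF628, 46 for ZNF701, 40 for ZNF557, 38 for ZNF160 and 34 for ZNF724. A quiescent gene-end peak without a proliferating one was seen at 0 genes, beside 0.00505% of all coding genes. One without a senescent peak was seen at 1 gene (0.4%), beside 0.328% of all, and that gene was ZNF737.

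One block in 19p12 was almost free of peaks. From ZNF208 to ZNF728 (21939815 to 23003176) 9 zinc finger genes span 1.06 Mb, and the interval held 2 proliferating, 2 senescent and 0 quiescent peaks, or 1.88 proliferating peaks per Mb. From its first to its last zinc finger gene, with all sequence between them, 19p12 held 10.2 proliferating peaks per Mb. Counted in the same way, 19q13.4 held 54.1, the centromeric part of 19q13 held 87.7 and 19p13 held 108. These spans include other genes. The zinc finger genes themselves, with 1000 bp to either side, had another order of mean share under proliferating peaks. It was 2.26% in 19p12, 9.65% in 19q13.4, 7.9% in centromeric 19q13 and 7.33% in 19p13. Within the block ZNF492 alone had a gene-end peak, with a proliferating score of 42 and a senescent score of 26. ZNF208, ZNF257, ZNF676, ZNF729, ZNF98, ZNF99, ZNF723 and ZNF728 had no peak anywhere in the locus, counted as the gene and the 1000 bp to either side of it. In the rest of 19p12 all 23 genes had a proliferating gene-end peak, 20 (87%) a senescent one and 6 (26.1%) a quiescent one. The block was singled out after its values were seen, and how uniquely reads can be placed in it was not tested.

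Over the whole set, 12 of 250 genes (4.8%) had no peak in the locus in any list, beside 14.2% of all protein-coding genes. Beyond the 8 of the block these were ZNF177 in 19p13, ZNF404 in centromeric 19q13, and ZNF534 and ZNF835 in 19q13.4. A gene-end peak was lacking in every list for 28 genes (11.2%), beside 21.6% of all, and 8 of the 28 were those of the block.

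The highest end scores were spread over the clusters, and the order differed between the proliferating and senescent lists. ZNF627 (19p13) and ZNF583 (19q13.4) shared the top proliferating score of 108, above 99.9% of the peaks of that list. In the senescent list ZNF627 scored 32, above 90.6% of peaks, and ZNF583 scored 23, above 67.9%. Neither had a quiescent gene-end peak. The next were ZNF526 with 97 (senescent 37, quiescent 30), ZNF524 with 91 (senescent 32), ZNF564 with 90 (senescent 40, quiescent 31) and the pair ZNF490 and ZNF791 with 89 from their common peak (senescent 20). That pair fell to above 54.3% of peaks in the senescent list, the widest drop in rank among these. ZNF383 followed with 85 (senescent 26, quiescent 16).

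The top senescent scores belonged to other genes. ZNF724 led with 55 (proliferating 74, quiescent 34), followed by ZNF653 with 54 (65 and 19) and ZNF45 with 49 (73 and 33). ZNF724 thus ranked above 98.3% of proliferating, 99.7% of senescent and 90.7% of quiescent peaks. ZNF628 and ZNF865 scored 47 in the senescent list, with 80 and 70 in the proliferating and 65 and 23 in the quiescent list. ZNF780A scored 45 (proliferating 51), ZNF878 43 (62 and 33) and ZNF480 43 (49 and 15). Within 19p12 the leaders were the same genes in both lists: ZNF675 with 83 and 38, ZNF431 with 78 and 35, and ZNF724. ZNF675 encodes an inhibitor of TRAF6 signalling. Ranked by the lower of their proliferating and senescent ranks, the leading 10 genes were ZNF628, ZNF724, ZNF564, ZNF45, ZNF675, ZNF865, ZNF526, ZNF431, ZNF653 and ZNF69. Of them 9 had a quiescent gene-end peak, the exception being ZNF675. High scores went with such a peak over all coding genes too. It was found at 69.3% of those with a proliferating end score of 62 or more and at 64.6% of those with a senescent one of 34 or more.

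The highest proliferating scores went with a peak in the other lists more often than the lowest. Among the 35 genes with a proliferating end score of 10 to 29, 77.1% had a senescent and 11.4% a quiescent gene-end peak, beside 69.1% and 3.69% of all coding genes in that range. Among the 38 with a score of 62 or more, 94.7% had a senescent and 68.4% a quiescent one, beside 98.7% and 69.3%. The 5 score ranges of the set ran 77.1%, 81.5%, 91.2%, 91.4% and 94.7% for the senescent list. From the second range on these stayed under the 88.4%, 95%, 96.5% and 98.7% of all coding genes. For the quiescent list they ran 11.4%, 25.9%, 40.4%, 34.3% and 68.4%, beside 3.69%, 21.9%, 37.8%, 52.2% and 69.3% of all. The fourth range, of 35 genes, was lower than the third in the set and not over all coding genes.

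Some members with known roles, chosen after their values were seen, are given for reference. ZNF91, a repressor of SVA elements, scored 46 in the proliferating and 32 in the senescent list and had no quiescent gene-end peak. ZNF274, which recruits SETDB1 to zinc finger genes, scored 27 and 18 and also had none in the quiescent list. ZNF473, a component of the machinery that processes histone pre-mRNA, scored 50 and 24. ZNF350, a BRCA1-binding repressor, scored 23 in the proliferating list alone, and ZNF331, an imprinted gene in 19q13.4, scored 12 in the proliferating and 25 in the senescent list.

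Between proliferating and senescent cells most gene-end peaks were shared. Both lists held one at 191 genes (76.4%), beside 67.8% of all protein-coding genes, and all 3 lists at 78 (31.2%), beside 27.4%. Of the highest proliferating end peaks of the 219 genes, 192 (87.7%) overlapped a senescent peak, and of the highest senescent ones 189 of 194 (97.4%) overlapped a proliferating peak. The same shares over all coding genes were 86.8% and 93.1%. Proliferating end peaks had a median width of 1200 bp, senescent ones of 877 bp and quiescent ones of 385 bp.

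A gene-end peak in the proliferating and not the senescent list was seen at 28 genes (11.2%), beside 8.12% of all coding genes, and the reverse at 3 (1.2%), beside 2.49%. The 28 were spread over the clusters as 5, 3, 8 and 12 genes. When the proliferating list was cut to its 40460 highest peaks, so that both lists covered the same length, the counts were 22 (8.8%) and 18 (7.2%), beside 4.05% and 9.45% of all coding genes. In the 2 uncut lists, 19 genes (7.6%) combined a gene-end peak in the proliferating list with no senescent peak in the gene or the 5000 bp to either side, beside 2.85% of all coding genes, 1.29% of the other chromosome 19 genes and 4.49% of the ZNF genes on other chromosomes. No gene of the set showed the reverse, beside 0.752% of all.

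The 19 were led by ZNF57 with a proliferating score of 71, above 97.9% of the list, followed by ZNF486 with 64, ZNF429 with 57, ZNF784 with 55 and ZNF566 with 47. ZNF559 and the read-through gene ZNF559-ZNF177 shared a peak of score 44, ZNF737 scored 44, ZNF461 40 and ZNF586 39. ZNF486, ZNF429 and ZNF737 lie in 19p12 and were the only genes of that cluster with a proliferating and no senescent gene-end peak. ZNF737 was the one of these 10 with a quiescent peak, of score 15. The 3 genes with a senescent and no proliferating gene-end peak were ZNF536, ZNF599 and ZNF565, all in centromeric 19q13, with senescent scores of 24, 11 and 17. Each of them had at least 1 proliferating peak in the gene body.

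The share of each locus under peaks was lower in the senescent list. It averaged 7.77% ± 9.66 (SD across 250 genes) in the proliferating, 5.29% ± 7.98 in the senescent and 0.903% ± 2.16 in the quiescent list, and the SD describes genes, not replicates. The senescent to proliferating ratio of these means was 0.681, beside 0.634 for all coding genes and 0.645 for the other genes of chromosome 19. The locus share was lower in the senescent list for 204 genes (81.6%), beside 72.5% of all and 89.1% of the ZNF genes on other chromosomes, higher for 34 (13.6%), beside 13.2%, and equal for 12 (4.8%), beside 14.3%, which are the 12 without any peak. By cluster the ratio was 0.701 in 19p13, 0.565 in 19p12, 0.753 in centromeric 19q13 and 0.644 in 19q13.4. The other chromosome 19 genes had 19.1% ± 19.4 of the locus under proliferating peaks.

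The most covered loci were short genes. ZNF580 had 98.8% of its locus under proliferating, 80.3% under senescent and 25.7% under quiescent peaks. ZNF575 had 55.9%, 46.6% and 4.56%, ZNF524 45.8%, 23.3% and 0%, and ZNF581 45.3%, 37.7% and 9.1%. ZNF580, ZNF581 and ZNF524 are neighbours in 19q13.4 between 55599574 and 55645623. ZNF296 ran the other way, with 36.8% in the proliferating and 46% in the senescent list, the largest gain in the set. ZNF792 had 29% and 27.6%. In the quiescent list ZNF491 followed ZNF580 with 12%, ahead of ZNF581, ZNF653 with 5.34% and ZNF584 with 5.33%.

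**Figure D4:**
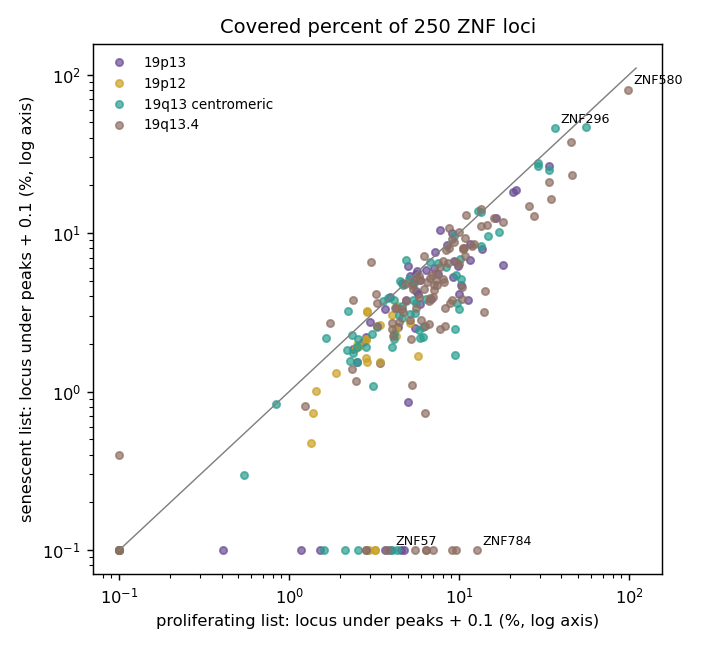
Percent of each of the 250 loci under peaks in the proliferating (x) and senescent (y) lists, both on log axes after adding 0.1, 1 point per gene, coloured by cluster, with the line of equal values. Most points lie below the line, ZNF296 lies above it, and the points along the lower edge, such as ZNF57 and ZNF784 (12.6% in the proliferating list), have no senescent peak in the locus.

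Promoters of the set held about as many CG dinucleotides as others. In the 300 bp promoter windows of 219 genes the median was 20 CG dinucleotides (quartiles 14 to 25), against 22 (8 to 32) over 15812 coding genes. At least 1 was found in 100% of the set and in 98.1% of all. The median was lowest in 19p12 with 10 (range 8 to 16), and was 18 in 19p13, 20 in centromeric 19q13 and 24 in 19q13.4. Of the 26 genes of 19p12 with known strand, 23 (88.5%) had a proliferating start peak. This share leaves out genes of unknown strand, among them ZNF676, ZNF729, ZNF98, ZNF99 and ZNF728, which had no peak. Over all 32 genes of 19p12, 24 (75%) had a proliferating gene-end peak.

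Proliferating start peaks were found at over 80% of these genes at every CG count. With 0 to 9 CG dinucleotides, 13 of 16 zinc finger promoters (81.2%, 57 to 93.4) had a proliferating start peak, against 33.5% (28 to 39.4) of the other chromosome 19 genes and 33.2% of all coding genes. With 10 to 19 the shares were 88.4% (79.9 to 93.6), 69.7% (63 to 75.8) and 77.9%. With 20 to 29 they were 89.9%, 93.8% and 91.9%, and with 30 or more 89.3%, 93.7% and 92.6%. In the senescent list the shares of the zinc finger promoters were 68.8% (44.4 to 85.8), 76.7%, 80.9% and 85.7% (68.5 to 94.3) from the lowest to the highest CG count. At 0 to 9 this compares with 31.1% (25.8 to 37) of the other genes of the chromosome. In the quiescent list they were 18.8% (6.59 to 43), 30.2%, 37.1% and 35.7% (20.7 to 54.2), against 6.89%, 26.7%, 36% and 38% of all coding genes. The senescent and quiescent shares were thus lowest at 0 to 9, where the intervals are wide. Of the 16 promoters with fewer than 10 CG dinucleotides, 9 were in 19p12, among them ZNF429 and ZNF737. ZNF491 and ZNF69 in 19p13 also belonged to them, and had start peaks in all 3 lists.

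**Figure D5:**
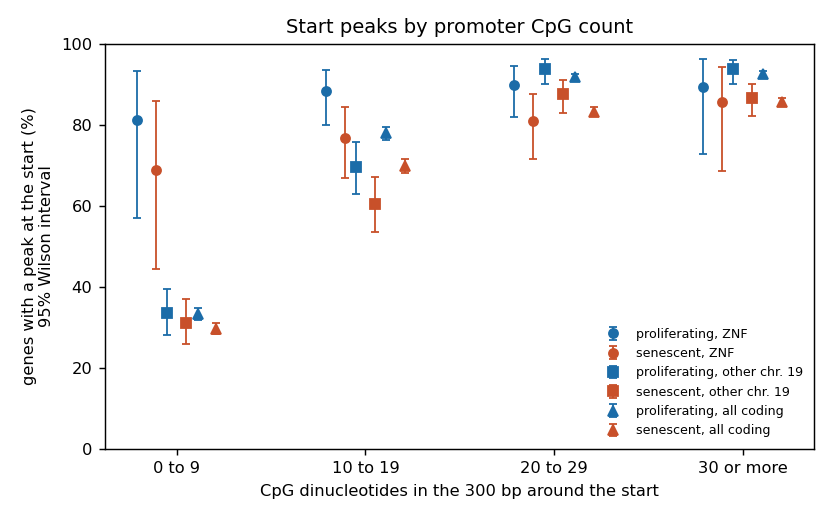
Percent of genes with a peak within 1000 bp of the start, by the number of CG dinucleotides in the 300 bp promoter window, for zinc finger genes of chromosome 19 (circles), other chromosome 19 genes (squares) and all coding genes (triangles), with 95% Wilson intervals. At 0 to 9 the zinc finger genes are at 81.2% in the proliferating list and the squares at 33.5%, and at 20 or more the 3 sets lie close together.

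The genes with which KRAB zinc finger proteins work were described from a list of 24. A gene-end peak was found in 23 of them (95.8%) in the proliferating, 21 (87.5%) in the senescent and 10 (41.7%) in the quiescent list, beside 75.9%, 70.3% and 27.7% of all coding genes. TRIM28, which lies in 19q13.4 itself, scored 45 in the proliferating and 26 in the senescent list, with 28.8% and 15.8% of its locus under peaks and none in the quiescent list. SETDB1 scored 49, 12 and 15 in the proliferating, senescent and quiescent lists. The histone chaperone gene DAXX had the highest proliferating score of the list, 109, with 26 and 27 in the others. ATF7IP, the partner of SETDB1, scored 58 in the proliferating list and had no peak in its locus in the others. SUV39H1 had a gene-end peak in the proliferating list only, of score 25, although 3.49% of its locus lay under senescent peaks. UHRF1 had no gene-end peak in any list, with 11.7%, 5.44% and 0.544% of its locus under proliferating, senescent and quiescent peaks. The locus share was lower in the senescent than in the proliferating list for 23 of the 24 (95.8%), beside 72.5% of all coding genes, HDAC1 being the exception with 4.53% and 5.36%.

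Other C2H2 genes of chromosome 19 carry another name, such as the ZSCAN, ZFP and ZBTB genes. Of 18 found from a list of 19, 9 (50%, 29 to 71) had one in the proliferating, 10 (55.6%, 33.7 to 75.4) in the senescent and 3 (16.7%, 5.84 to 39.2) in the quiescent list, beside 75.9%, 70.3% and 27.7% of all coding genes. The first of these intervals lies below the 82.9 to 91.1 of the ZNF genes, and the others overlap theirs. ZSCAN5B, ZSCAN5C, PEG3, an imprinted gene, and ZIM3 had no peak in any list, while ZBTB32 scored 70, 39 and 15 and ZSCAN22 63 and 19 in the proliferating and senescent lists.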

How the data were processed

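Each deposited peak list came from 1 RH library and gives peak positions and a score made by the authors. The submitters' processing notes name FastQC 0.11.9, Bowtie2 2.4.5, MACS2 2.2.7.1 and GRCh38. The settings, the control library and read filtering were not given in the sources used here. Positions were converted to 1-based coordinates and joined to the RefSeq gene table of GRCh38.p14. Strand came from the RefSeq promoter table (15812 coding genes), which allowed starts and 3′ ends to be told apart, a step added after the files were seen. Shares carry 95% Wilson and differences Newcombe intervals, and the depth behind the lists is unknown. Computation used Python 3.11.15, numpy 2.4.6 and pandas 2.3.3, and the joins were checked on planted peaks. Members and lists were chosen with earlier results of these data known. Named genes were, per cluster, the 3 highest proliferating and senescent end scores, the 10 best lower ranks in both lists, those with a quiescent gene-end peak, up to 10 with a peak in 1 list only, those without a peak, the 5 most covered loci per list, and ZNF57 and ZNF486. The alternatives were windows of 500 and 3000 bp, a 50% overlap, peaks at or above the median score, lists of equal number or covered length, the set without 4 hyphenated symbols (mostly read-through genes), 19p12 joined to 19p13, genes of 10 to 50 kb and the starts of the promoter table.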

Additional observations from a re-analysis of the deposited data

How the results depend on the processing

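Of 85 recomputed values 29 are given here. A change of direction was checked only for the ratio of covered shares, which stayed under 1 at every setting. Shares and counts were checked only for size. A share is given where it left its 95% counting interval, a count where it moved by over 1.5 times, and the ratio of covered shares, which has no error, at every setting that changed it. With peaks at or above the median score, gene-end shares were 82.8%, 66.4% and 17.2% in the proliferating, senescent and quiescent lists. In the proliferating and senescent lists body shares were 21.6% and 19.6%, start shares 83.1% and 65.8%, and the ratio of covered shares 0.607. Senescent gene-end shares were 64.6% in centromeric 19q13 and 68.3% in 19q13.4. A gene-end peak was in the proliferating list only at 47 genes (18.8%), beside 15.8% of all coding genes. It was in the senescent list only at 6 (2.4%), beside 3.08%. With 9736 peaks in every list, the gene-end shares were 29.6% and 20%, and the quiescent one stayed 31.6%. The counts were then 47 (18.8%) and 23 (9.2%), beside 17.1% and 6.49% of all coding genes, and the ratio 0.481. With equal covered length the proliferating gene-end share was 79.2%, the senescent-only count 18 (7.2%), beside 9.45% of all, and the ratio 0.738. With equal numbers in the proliferating and senescent lists that count was 6 (2.4%), beside 3.2% of all, and the ratio 0.689. Without the 4 genes whose symbol has a hyphen the ratio was 0.68. A window of 3000 bp gave a senescent body share of 18.8% and a proliferating 3′ end share of 12.8%, a window of 500 bp a senescent 3′ end share of 3.65%, and genes of 10 to 50 kb a senescent body share of 19.9%. With a peak at any start in the promoter table counted, the start shares were 95.4% and 84.9%. A gene can have more than 1 start there, which can only add places for a hit. The same shares over all coding genes were not computed. Fewer peaks or other windows also alter how many peaks or bases are counted, and the part of this in the changes was not tested. No paired analysis was possible because each state had 1 library.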
